A study of Rattus norvegicus with 6 samples.

Results

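The genes described here encode the nuclear subunits of the mitochondrial complexes of oxidative phosphorylation, with a few assembly factors and regulators whose symbols share the same stems. They are the genes with a probe set annotated to exactly 1 symbol that begins with Nduf and one of the letters a, b, c, s or v, with Uqcr, with Cox followed by a digit of the nuclear subunits, or with Atp5, together with the 4 Sdh genes and Cyc1. A gene with several such probe sets was represented by that with the highest mean log2 signal over the 6 arrays. The rule gave 87 genes of the 14217 genes with such a probe set on the array: 40 for complex I, 4 for complex II, 8 for complex III, 19 for complex IV and 16 for complex V. The complex IV genes include Cox6c-ps1, a pseudogene by its symbol. The carrier gene Cycs had no probe set of its own symbol alone and was not analysed here.

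Transcripts were measured on 6 Affymetrix rat arrays of RK3E, an immortalised line of epithelial cells from rat kidney. In 4 arrays the cells had been transfected with a GLI1 expression construct and grown out from isolated transformed foci; GLI1 is the transcriptional activator at the end of the Hedgehog pathway. Of these 1 array is labelled clone I, 2 are labelled clone II and 1 has no clone named. The 2 clone II arrays share a clone, so the 4 arrays are not 4 independent transformed lines. The other 2 arrays held parental RK3E cells, and all cells were kept in DMEM with 10% serum. The labels call the arrays of a group biological replicates without saying how the cultures were separated, so the p-values measure the spread between these arrays, which may be technical in part. RNA came from whole cultures, so a change in the mix of cells and a change in RNA per cell cannot be told apart.

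Complexes I to IV pass electrons from NADH and succinate to oxygen, and complexes I, III and IV pump protons across the inner mitochondrial membrane as they do so. Complex V, the ATP synthase, lets the protons back and makes ATP. Most subunits are encoded in the nucleus, a small set of catalytic ones in mitochondrial DNA, and dedicated assembly factors join the parts. Nuclear factors such as NRF1, GABP, YY1 and the ERR family, with coactivators of the PGC-1 family, are known to bind or act at promoters of these genes.

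Of the 81 genes that could be tested 4 rose (4.94%, beside 5.84% of all tested probe sets), and the promoters of these 4 are shown because these are the genes that passed the test. The sequences are from RefSeq on the GRCr8 assembly, run 5′ to 3′ on the strand of the gene from 250 bases before its start to 50 after it, and capitals mark the letters of any searched motif. They lie at chr5:150026628-150026927 (minus strand) for Atp5if1, chr3:147961362-147961661 (plus strand) for Ndufaf5, chr4:69334057-69334356 (plus strand) for Ndufb2 and chr10:38089929-38090228 (minus strand) for Uqcrq.
Atp5if1: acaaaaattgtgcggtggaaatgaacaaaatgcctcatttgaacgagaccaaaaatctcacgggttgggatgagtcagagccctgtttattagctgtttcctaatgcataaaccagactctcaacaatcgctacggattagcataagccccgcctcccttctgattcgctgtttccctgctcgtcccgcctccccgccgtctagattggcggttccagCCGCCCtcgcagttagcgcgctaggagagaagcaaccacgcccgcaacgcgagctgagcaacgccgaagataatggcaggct
Ndufaf5: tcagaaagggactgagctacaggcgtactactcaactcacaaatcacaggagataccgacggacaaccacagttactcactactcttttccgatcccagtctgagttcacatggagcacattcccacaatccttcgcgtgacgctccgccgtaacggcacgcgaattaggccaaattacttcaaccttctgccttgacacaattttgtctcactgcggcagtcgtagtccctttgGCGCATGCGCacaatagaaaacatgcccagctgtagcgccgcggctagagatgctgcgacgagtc
Ndufb2: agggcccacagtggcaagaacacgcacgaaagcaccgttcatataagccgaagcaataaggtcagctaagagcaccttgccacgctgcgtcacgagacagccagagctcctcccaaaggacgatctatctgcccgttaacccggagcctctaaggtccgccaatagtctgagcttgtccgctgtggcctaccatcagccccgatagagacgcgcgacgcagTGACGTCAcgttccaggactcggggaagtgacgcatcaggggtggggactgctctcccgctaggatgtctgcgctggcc
Uqcrq: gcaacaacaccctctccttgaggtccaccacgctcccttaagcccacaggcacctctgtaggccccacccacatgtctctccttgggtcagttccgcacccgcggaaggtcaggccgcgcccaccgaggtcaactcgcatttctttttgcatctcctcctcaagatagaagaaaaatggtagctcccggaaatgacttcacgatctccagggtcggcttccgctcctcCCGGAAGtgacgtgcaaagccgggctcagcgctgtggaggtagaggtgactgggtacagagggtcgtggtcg

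Each of these 4 windows held 1 match, to a different motif. The Ndufaf5 promoter had the NRF1 motif, a palindrome of 10 letters, with its first base 15 bases before the start. The Uqcrq promoter had the ETS-family motif CCGGAAG that GABP binds, and the Ndufb2 promoter had the cyclic AMP response motif TGACGTCA. The Atp5if1 promoter had GGGCGG, an SP1-family motif, on the other strand. Both strands were searched for these 4 and for the YY1 motif and the ERR motif TCAAGGTCA, and a match is a description of letters, not of binding.

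A promoter was listed for 78 of the 87 genes. These are 1 promoter per gene, while the 33469 below are every promoter of the table, with no limit to genes on the array. The shares thus have unlike bases, and their difference was not tested. The ETS-family motif stood in 22 of the 78 (28.2%), against 8.75% of all 33469 promoters of the table. The YY1 motif stood in 10 (12.8%), against 0.980% of all, and the NRF1 motif in 5 (6.41%), against 0.852% of all. The SP1-family motif was common in both, at 43.6% of the 78 and 33.1% of all. The cyclic AMP response motif stood in 3 promoters (3.85%, against 1.83%) and the ERR motif in 2 (2.56%, against 0.433%).

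Values below are log2 of the array signal, a brightness scaled to the same mean on every array, and differences are GLI1-transformed minus parental on that scale. The GLI1 arrays are given in the order no clone named, clone I, then clone II by replicate number, and the parental arrays by replicate number. A probe set was tested when its mean over the 6 arrays was above 8.33, the 40th percentile; "rose" and "fell" mean a Benjamini-Hochberg adjusted p under 0.05 over 18625 tested probe sets in limma. Gli1 itself had 13.15, 11.71, 11.77 and 12.17 on the GLI1 arrays, against 5.17 and 6.50 on the parental arrays. The ratio of GAPDH signal at the 3′ end to that at the 5′ end, a measure of RNA integrity, was 7.52 on clone II replicate 1 and 3.66 on parental replicate 1, and 1.39 to 2.09 on the other 4 arrays. Of 9 kidney epithelial markers 3 were bright enough to test: Cldn1 rose, while Krt8 and Epcam did not pass. Both split the GLI1 arrays: Krt8 had 12.06 and 12.57 on the array with no clone named and on clone I but 9.07 and 9.23 in clone II, against 10.08 and 10.40 on the parental arrays, and Epcam had 11.09, 10.90, 9.23 and 8.75 on the GLI1 arrays, against 8.77 and 8.92 on the parental arrays. The keratin gene Krt18 and the E-cadherin gene Cdh1 were below the filter. Of 7 fibroblast markers 4 were tested: the collagen genes Col1a1, Col1a2 and Col3a1 fell, while Pdgfra gave -0.06 (adjusted p = 0.95). Of those below the filter, Dcn averaged 7.75 in GLI1-transformed and 7.72 in parental cells, Lum 6.64 and 5.97, and Thy1 7.22 and 8.85. The summed signal of the 7 was 2262 to 6624 on GLI1 arrays and 152555 to 169946 on parental arrays. The immune marker Cd14 fell, with 1 of 5 measured immune markers tested, 0 of 4 endothelial markers were tested, and of 3 tested muscle markers 0 passed in limma (1 rise and 0 falls at an unadjusted p under 0.05). The part of any such marker change in the results below was not tested.

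Few respiratory chain transcripts passed the test in GLI1-transformed cells: 4 of the 81 tested rose, 0 fell, and 77 did not pass. The 4 were Atp5if1 (2.65-fold), Ndufaf5 (1.94-fold), Ndufb2 (1.69-fold) and Uqcrq (1.66-fold). Over all tested probe sets 5.84% rose and 7.25% fell. These include dimmer probe sets, while each gene here stands by its brightest one. With the filter at the 60th percentile 4 of 77 genes rose and 0 fell, beside 1088 rises and 1087 falls among 12417 probe sets. At an unadjusted p under 0.05, 14 rises and 0 falls stood among the 81 (17.3%, beside 14.2% rises and 14.7% falls over all probe sets). All 4 GLI1 arrays were above both parental arrays for 14 genes (17.3%, beside 19.0% of all tested probe sets), and below both for 0 genes, beside 20.2% of all.

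The differences were small and mostly above 0. They were positive for 69 of 81 genes (85.2%), where 50.3% of all tested probe sets were, and ranged from -0.42 to 1.41. The median was 0.23, against 0.005 over all tested probe sets and 0.14 over the 3108 tested probe sets with a mean log2 signal above 13, where 62 of the 81 genes lie. That median rests on the parental arrays: with parental replicate 1 left out it was 0.04, with parental replicate 2 left out 0.48, and with clone I left out 0.16. With the pair of highest GAPDH ratio left out, clone II replicate 1 with parental replicate 1, the median was 0.06. With each array centred on its own median the median of all tested probe sets moved up by 0.16, and that of these genes became 0.39.

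**Figure D1:**
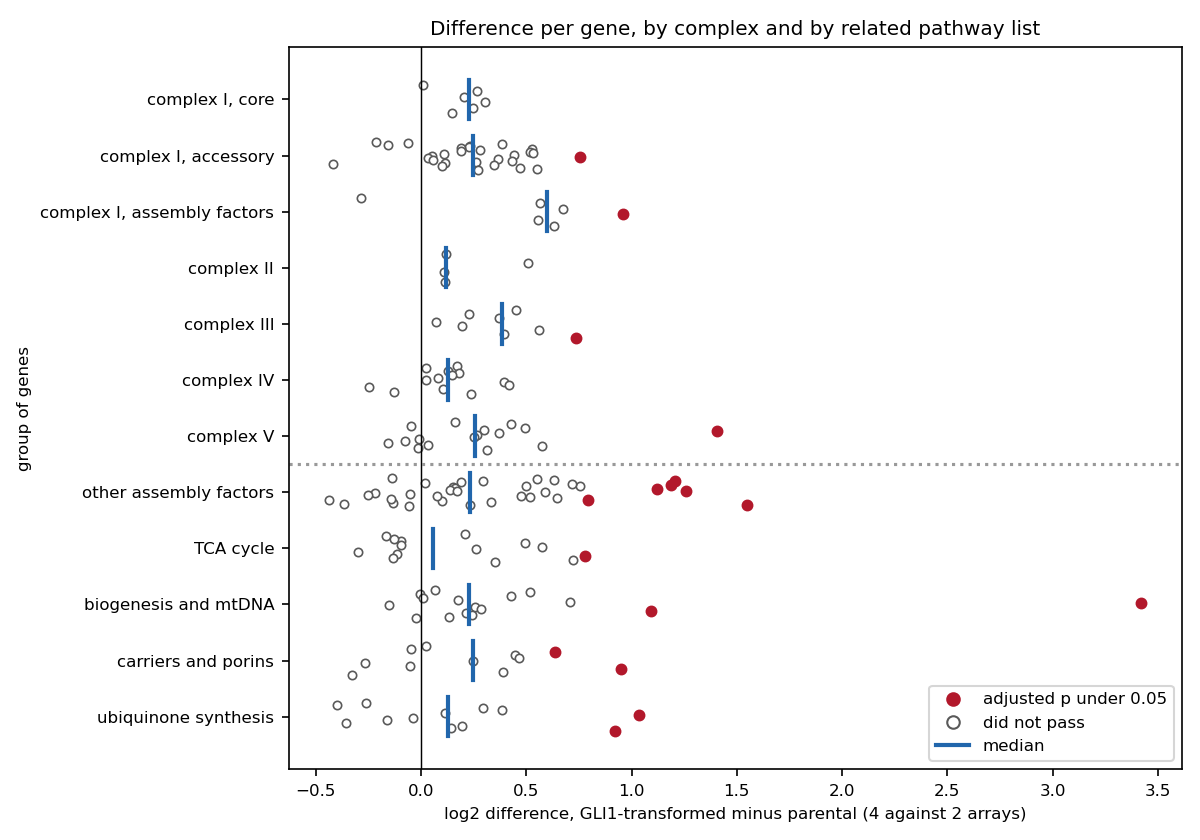
Log2 difference between 4 GLI1-transformed and 2 parental arrays (horizontal axis) for each tested gene, by complex above the dotted line and by related pathway list below it; filled points passed an adjusted p of 0.05 and bars are medians. The 4 risen genes lie at 0.74 to 1.41, and no gene of the 5 complexes lies below -0.42. The point at 3.42 is Ppargc1a, whose parental values were below the filter.

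Complex I, the NADH dehydrogenase, had 40 tested genes with 2 rises and 0 falls, while 38 did not pass, with a median difference of 0.26. Its 6 core genes, which carry the flavin and iron-sulfur centres or the quinone site, gave 0.01 to 0.30, and none passed (0 at an unadjusted p under 0.05). The smallest adjusted p among them was that of Ndufs8, an iron-sulfur subunit, which had 12.99, 13.30, 13.20 and 13.40 on the GLI1 arrays, against 12.68 and 13.16 on the parental arrays. The groups overlapped, and the difference was 0.30 (SE 0.20, adjusted p = 0.363).

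Among the 28 accessory genes, which surround the core and stabilise it, 1 rose, 0 fell and 27 did not pass (median 0.25). Ndufb2, of the membrane arm, had 14.30, 14.76, 15.00 and 14.83 on the GLI1 arrays, against 13.87 and 14.07 on the parental arrays. All GLI1 values were higher, the lowest being the array with no clone named. GLI1-transformed cells averaged 14.72 ± 0.30 (SD, n = 4) and parental cells 13.97 ± 0.14 (SD, n = 2), a difference of 0.75 (SE 0.21, limma adjusted p = 0.0469). Ndufs6, an accessory subunit near the iron-sulfur arm, gave 0.55 (adjusted p = 0.0781) and Ndufa9, near the quinone site, 0.52 (0.0902). Each had every GLI1 array above both parental arrays, which also held for 19.0% of all tested probe sets. At the other end Ndufb9 gave -0.42 (adjusted p = 0.296) and Ndufa1 -0.21 (0.638).

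The 6 assembly factors of complex I had a median of 0.60. Of them 1 rose, 0 fell and 5 did not pass. The gene that rose was Ndufaf5, a methyltransferase-like protein that modifies a core subunit during assembly, with 12.21, 12.19, 12.47 and 12.02 on the GLI1 arrays, against 11.31 and 11.22 on the parental arrays. Every GLI1 value lay above both parental values. GLI1-transformed cells averaged 12.22 ± 0.18 (SD, n = 4) and parental cells 11.27 ± 0.06 (SD, n = 2), and the difference was 0.96 (SE 0.20, adjusted p = 0.0147). Ndufaf3, Ndufaf4, Ndufaf7 and Ndufaf8 gave 0.56 to 0.68 with adjusted p from 0.0683 to 0.162. In each all GLI1 arrays were above both parental arrays, which also held for 19.0% of all tested probe sets. These genes were named after their values were seen, and a shared rise of assembly factors was not tested. The other probe set of Ndufaf7 gave 0.02 (0.976). Ndufaf1 went the other way, at -0.29 (0.738), with 1 low GLI1 value of 8.20 on the array with no clone named.

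Complex II, the succinate dehydrogenase, also a citric acid cycle enzyme, had 4 tested genes and none passed (0 at an unadjusted p under 0.05). Sdha, Sdhc and Sdhd gave 0.11 to 0.12. Sdhb, the iron-sulfur subunit, had 13.36, 13.63, 12.73 and 13.92 on the GLI1 arrays, against 12.32 and 13.48 on the parental arrays. The low values were those of clone II replicate 1 and parental replicate 1, the groups overlapped, and the difference was 0.51 (SE 0.38, adjusted p = 0.424). With parental replicate 1 left out it was -0.074.

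Complex III, the cytochrome bc1 complex, had 8 tested genes, all with a positive difference (median 0.38). There was 1 rise and there were 0 falls, and 7 did not pass. Uqcrq, a small subunit beside cytochrome b, had 14.94, 15.57, 15.45 and 15.41 on the GLI1 arrays, against 14.53 and 14.68 on the parental arrays. The array with no clone named was again the lowest of the 4, and all 4 were above both parental arrays. GLI1-transformed cells averaged 15.34 ± 0.27 (SD, n = 4) and parental cells 14.61 ± 0.11 (SD, n = 2), a difference of 0.74 (SE 0.20, adjusted p = 0.0407). Cyc1, the cytochrome c1 gene, gave 0.45 (0.152), and the Rieske iron-sulfur gene Uqcrfs1 gave 0.56 (0.236) with a low value of 13.15 on parental replicate 1.

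Uqcrq and Ndufb2 stood near the threshold. Both lost their call when any 1 array other than that with no clone named was left out (adjusted p from 0.0744 to 0.258 for Uqcrq and from 0.0859 to 0.29 for Ndufb2). Ndufaf5 lost its call without parental replicate 1 (0.11) or 2 (0.114). Without the array with no clone named 7 of 81 genes rose, beside 1393 of 18625 probe sets. The added genes were Ndufs6, Ndufa9 and Ndufaf4. With the clone II arrays averaged into 1, Uqcrq and Ndufb2 lost their calls, while Atp5if1 and Ndufaf5 kept theirs. The same held with each array centred on its median, with no filter and with no intensity trend.

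**Figure D2:**
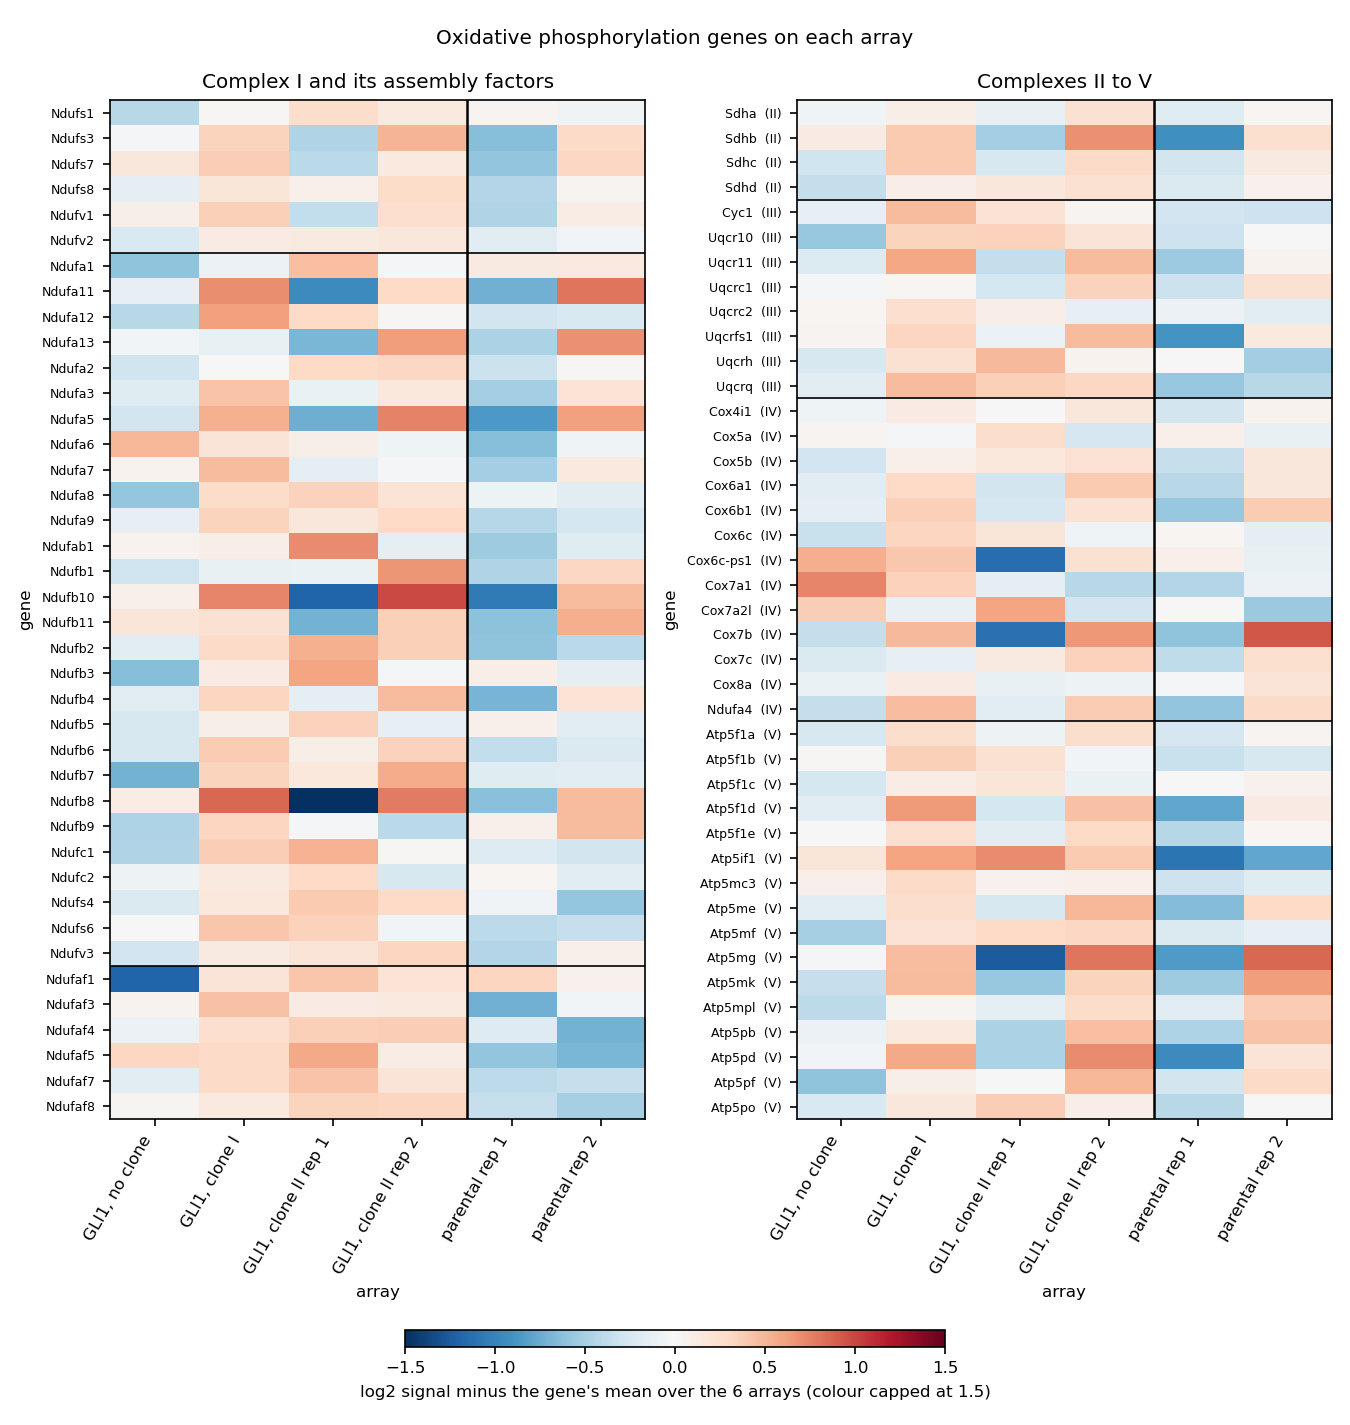
Log2 signal of each tested gene on each array minus the gene's mean over the 6 arrays (colour, capped at 1.5), with the 4 GLI1-transformed arrays left of the line and the 2 parental arrays right of it. Atp5if1 and Ndufaf5 are higher on all 4 GLI1 arrays, while Cox7b, Atp5mg, Ndufb8 and Ndufb10 are low on clone II replicate 1 and on parental replicate 1.

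Complex IV, the cytochrome c oxidase, had 13 tested genes, and none rose or fell (0 of 13 at an unadjusted p under 0.05 in limma). The median was 0.13. The supercomplex factor gene Cox7a2l had the smallest adjusted p, with 15.29, 14.81, 15.52 and 14.63 on the GLI1 arrays, against 14.93 and 14.37 on the parental arrays; the groups overlapped and the difference was 0.42 (SE 0.27, adjusted p = 0.356). The broadly used forms of subunits that have isoforms gave 0.17 for Cox4i1, 0.18 for Cox6a1, 0.14 for Cox6b1 and -0.13 for Cox8a. The separate subunits Cox5a and Cox5b gave 0.02 and 0.13. Adjusted p for these genes ran from 0.535 to 0.955. Ndufa4, first described in complex I and now placed in complex IV, gave 0.24 (0.665). Several of these directions were not stable: with arrays centred Cox8a gave 0.033, and with parental replicate 1 left out Cox5b, Cox6a1, Cox6b1 and Ndufa4 gave -0.13, -0.11, -0.33 and -0.20.

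Forms known mainly from certain tissues were dim. Cox4i2, Cox6a2, Cox6b2, Cox7b2, Cox8b and Ndufa4l2 did not reach the filter and were not tested. Their means over the 6 arrays were at most 7.61, that of Ndufa4l2, a gene induced by hypoxia in other cells. Cox4i2, a form known from lung, ran from 5.35 to 8.16 on the GLI1 arrays and was 5.85 and 6.23 on the parental arrays. Cox6a2, a form of heart and skeletal muscle, was 8.07 on the GLI1 array with no clone named and 4.36 to 5.33 on the other GLI1 arrays, against 5.11 and 5.33 on the parental arrays. The muscle form Cox7a1 was the dimmest gene tested, with a mean of 8.85. It had 9.58, 9.20, 8.70 and 8.43 on the GLI1 arrays, against 8.41 and 8.76 on the parental arrays, and did not pass (difference 0.39, SE 0.41, adjusted p = 0.581). All 81 tested genes had both group means above the filter.

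Complex V, the ATP synthase, had 16 tested genes with 1 rise and 0 falls, and 15 did not pass (median 0.26). The gene that rose does not encode a working part of the enzyme: Atp5if1 encodes the inhibitory factor that binds the catalytic head and blocks ATP hydrolysis when the proton gradient collapses. It had 14.08, 14.50, 14.62 and 14.30 on the GLI1 arrays, against 12.81 and 13.12 on the parental arrays. Every GLI1 value lay above both parental values. GLI1-transformed cells averaged 14.38 ± 0.23 (SD, n = 4) and parental cells 12.97 ± 0.22 (SD, n = 2), a difference of 1.41 (SE 0.20, adjusted p = 0.00267). It passed with any 1 array left out (1.25 to 1.56). With clone II replicate 1 and parental replicate 1 both left out it gave 1.17 (0.0859).

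Atp5if1 had other probe sets, and they did not pass. One had 9.59, 9.72, 10.05 and 8.74 on the GLI1 arrays, against 9.15 and 9.58 on the parental arrays, a difference of 0.16 (SE 0.40, adjusted p = 0.837). The other gave 0.31 (SE 0.38, 0.638). Which transcripts each probe set detects was not looked up here. The mean of all 3 gave a difference of 0.63 and did not pass (0.0886).

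The 5 genes of the F1 head, which holds the catalytic sites, gave -0.05 to 0.49. Atp5f1b, the catalytic beta subunit, had 15.97, 16.31, 16.17 and 15.91 on the GLI1 arrays, against 15.62 and 15.71 on the parental arrays. All 4 were higher, and the difference of 0.43 did not pass (SE 0.16, adjusted p = 0.125). Atp5mc3, which encodes the ring protein that turns with proton flow, had 16.11, 16.32, 16.11 and 16.11 on the GLI1 arrays, against 15.73 and 15.86 on the parental arrays (difference 0.37, SE 0.15, adjusted p = 0.132). The 10 membrane and stalk genes, Atp5mc3 among them, ranged from -0.15 to 0.57.

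Clone I and the array with no clone named, 1 array each, were not tested against each other. When clone II was set against the other GLI1 arrays, 0 of 81 genes passed (limma; 1 rise and 0 falls at an unadjusted p under 0.05), beside 0.0161% and 0.113% of all tested probe sets that rose and fell. The differences ran from -0.93, for Cox6c-ps1, to 0.82, for Ndufaf1. Against the parental arrays, 3 genes rose in clone II (Atp5if1 by 1.49, Ndufaf5 by 0.98 and Ndufb2 by 0.95), beside 3.99% of all probe sets, and 0 fell, beside 5.74% (10 rises and 0 falls at an unadjusted p under 0.05). In the other GLI1 arrays Atp5if1 rose by 1.32 and Ndufaf5 by 0.94, beside 5.57% of all probe sets, and 0 fell, beside 6.83% (again 10 and 0). Both comparisons used the same parental arrays.

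The machinery around the complexes, from assembly to carriers, was read from 5 lists of other genes. Of 88 tested genes 13 rose and 0 fell (0 falls at an unadjusted p under 0.05 too). Ppargc1a is among the 13 but was tested only through its GLI1 values. Of the 87 with both group means above the filter 12 rose (13.8%, beside 5.58% of all such probe sets), and whether this share differs from that of the subunits was not tested. The lists were chosen with earlier results known. They hold the brightest probe set of each gene, while all probe sets include dimmer ones. With the filter at the 60th percentile, where Ppargc1a was not tested, 13 of 81 list genes rose, beside 1088 of 12417 probe sets. Ppargc1a, the PGC-1alpha gene, whose protein coactivates mitochondrial biogenesis, had 9.66, 9.68, 9.69 and 9.09 on the GLI1 arrays, against 6.73 and 5.49 on the parental arrays. All GLI1 values were higher, but the parental values were below the filter of 8.33 and may not be above background, so no size is read from the difference. The gene was not tested when any 1 GLI1 array was left out. Its other probe sets were below the filter; one had 8.22 to 9.29 on GLI1 arrays and 6.55 and 3.87 on parental arrays, and the other overlapped between the groups.

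Tfam, which packages and transcribes mitochondrial DNA, had 13.95, 13.87, 14.03 and 13.94 on the GLI1 arrays, against 12.78 and 12.93 on the parental arrays. The GLI1 values lay close together and above both parental values, and the difference was 1.09 (SE 0.15, adjusted p = 0.00281). Its call was lost without parental replicate 1 (0.051). Of the 15 biogenesis and mitochondrial DNA genes with both group means above the filter, Tfam was the 1 that rose, and 0 fell.

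Of 35 tested assembly factors other than those of complex I above, 6 rose and 0 fell (median 0.23). Uqcc2, an assembly factor of complex III, had 14.63, 14.70, 14.49 and 14.57 on the GLI1 arrays, against 12.87 and 13.23 on the parental arrays. This was a 2.92-fold rise (difference 1.55, SE 0.17, adjusted p = 0.000787), and it passed in every alternative run. Cox19, which helps deliver copper to complex IV, had 13.13, 13.02, 13.27 and 13.13 on the GLI1 arrays, against 11.79 and 11.97 on the parental arrays (difference 1.26, SE 0.17, adjusted p = 0.00225). Its other probe set gave 0.52 (0.2). The other 4 were Cox10, which makes haem for complex IV (difference 1.19, adjusted p = 0.00605), Coa3 (1.21, 0.0102), the copper chaperone Cox17 (1.12, 0.0493) and Sdhaf3 of complex II (0.79, 0.0464). Cox17 lost its call when any 1 array other than that with no clone named was left out, and also with no filter, with no trend and with the replicate number as a block. Sdhaf3 lost its call without clone I, without clone II replicate 1, without either parental array, with no filter or with no trend, Coa3 without either parental array, and Cox10 without parental replicate 2. The other 29 tested factors did not pass, among them Surf1, Sco1, Cox11 and Cox15 of complex IV.

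**Figure D3:**
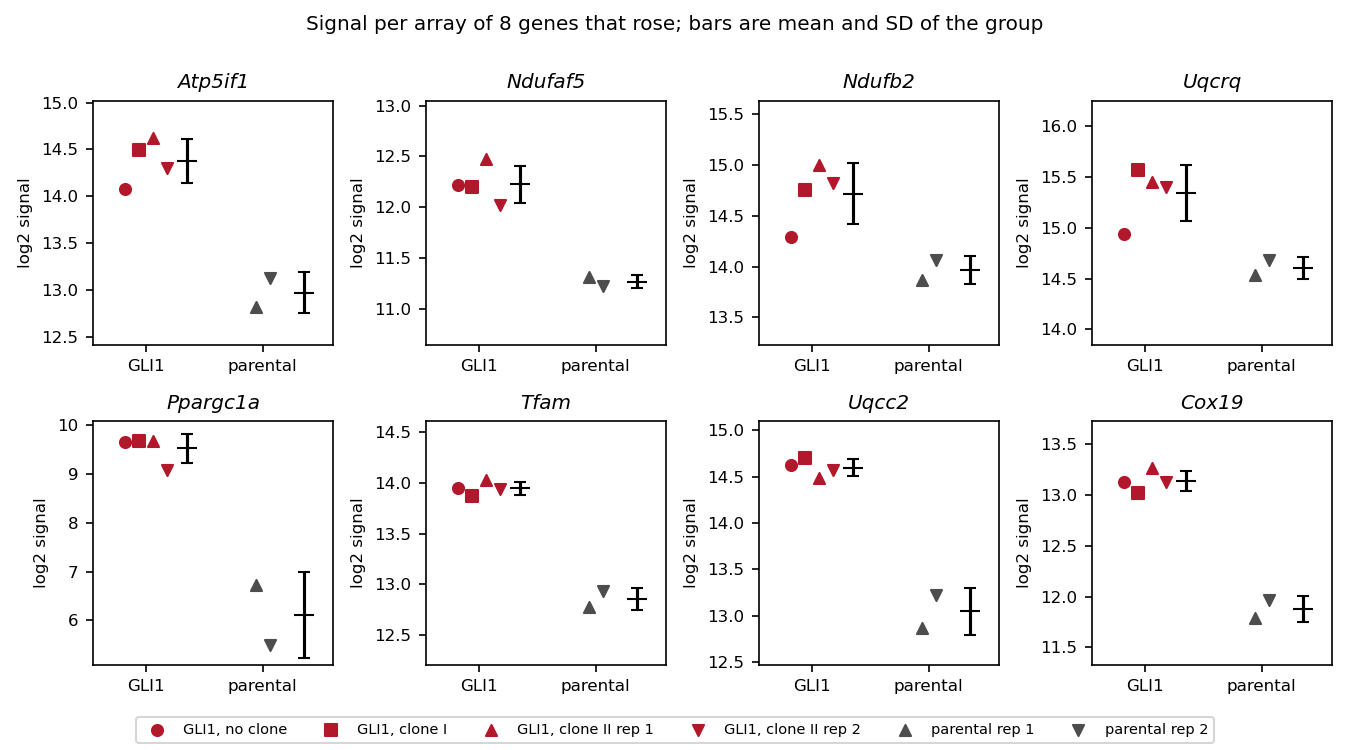
Log2 signal (vertical axis, each panel with its own range) on the 4 GLI1-transformed and 2 parental arrays for the 4 risen genes of the complexes (top row) and 4 of the related lists (bottom row), with group mean and SD as bars. In all 8 panels every GLI1 array is above both parental arrays, but the genes were chosen because they rose on these arrays, so this is not a separate result. The parental values of Ppargc1a were below the filter.

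The other lists had 1 or 2 such genes each. Of 14 tested genes of the citric acid cycle and pyruvate dehydrogenase 1 rose, Pdhx (difference 0.78, adjusted p = 0.0441), and 0 fell. Of 11 tested carriers and porins Vdac1, the main outer membrane channel, rose by 0.95 (SE 0.18, adjusted p = 0.0102) and the oxoglutarate carrier Slc25a11 by 0.63 (0.0479), and 0 fell. The other probe set of Vdac1 gave 0.62 (SE 0.47, adjusted p = 0.425), and the mean of its probe sets did not pass. Of 12 tested genes of ubiquinone synthesis Coq5 rose by 1.03 (0.0315) and Pdss2 by 0.92 (0.0491), and 0 fell. The count of 13, Ppargc1a included, became 6 without clone I, 6 without clone II replicate 1 and 7 without clone II replicate 2. Ppargc1a was not tested in any of these runs. Rises over all probe sets were 602, 828 and 913 in the same runs, against 1087 with all arrays. The count was 8 with no filter, beside 963 of 31042 probe sets. With no intensity trend it was also 8, beside 705 of 18625. Without clone II replicate 1 and parental replicate 1 together it was 2, Uqcc2 and Ppargc1a. Vdac1 lost its call without parental replicate 1 (0.132), and Pdhx, Slc25a11, Coq5 and Pdss2 lost theirs when any 1 array other than that with no clone named was left out.

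Some of these genes varied widely between arrays of the same group. In 10 genes the signal on replicate 1 was over 1 log2 unit below that on replicate 2 both in clone II and in the parental cells (12.3% of 81, beside 1.48% of all tested probe sets), and in 0 genes was it over 1 unit above in both, beside 0.161% of all. Atp5mg, a membrane subunit of complex V, had 12.19 and then 14.24 in clone II by replicate number, and 12.59 and then 14.30 in the parental cells. The GLI1 and parental means of Atp5mg were 13.43 ± 0.90 (SD, n = 4) and 13.45 ± 1.21 (SD, n = 2). Cox7b, a small subunit of complex IV, had 12.69 and 14.45 in clone II, and 13.20 and 14.74 in the parental cells. Ndufb10, of the complex I membrane arm, had 11.63 and 13.82 in clone II, and 11.77 and 13.31 in the parental cells.

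The other 7 were Ndufb8, Ndufb11, Ndufa5, Ndufa11 and Ndufa13 of complex I, Sdhb of complex II and Atp5pd of complex V, so that genes of 4 of the 5 complexes were among the 10. In both pairs the lower array was the one with the higher GAPDH ratio (7.52 and 1.39 in clone II, 3.66 and 1.43 in the parental cells). Across the 81 genes the pair differences of clone II and the parental cells had a Pearson correlation of 0.81, where over all 18625 tested probe sets it was 0.32; genes on the same arrays are not independent. Clone I was above the array with no clone named in 74 genes (91.4%), with a median difference of 0.43, where over all tested probe sets it was above in 44.1%, with a median of -0.07. Their GAPDH ratios were 1.45 and 2.09. The part of RNA integrity in these differences was not tested.

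**Figure D4:**
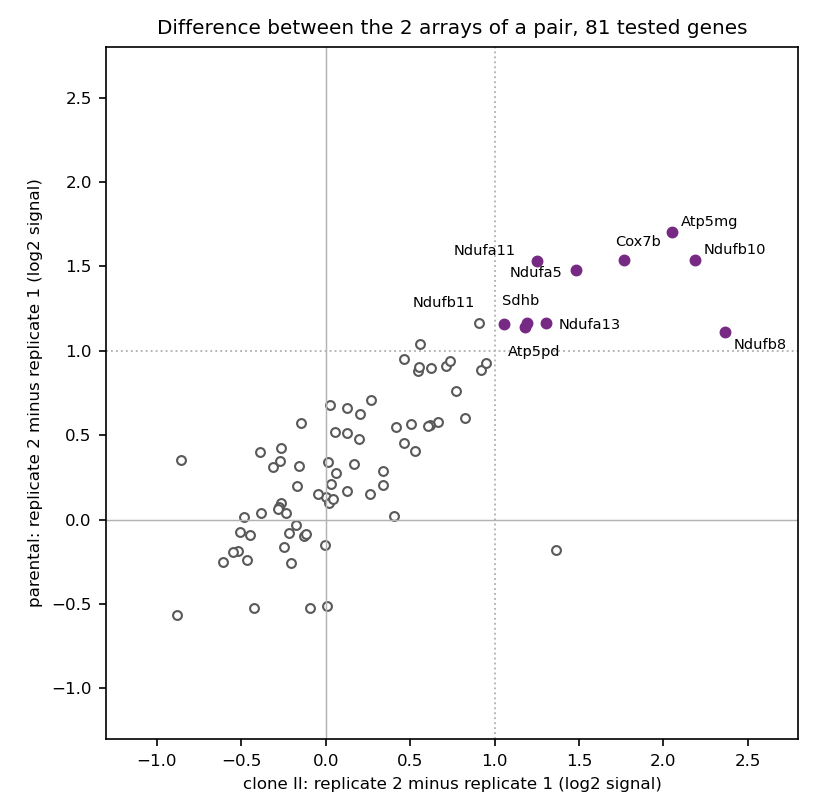
Log2 signal on replicate 2 minus replicate 1 in clone II (horizontal axis) and in parental RK3E (vertical axis) for each of the 81 tested genes, with the 10 genes over 1 unit in both pairs named. The 10 named genes lie in the upper right, and no gene lies below -1 in both.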

How the data were processed

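The data are 1-colour Affymetrix rat arrays of biotin-labelled cRNA. The authors deposited a linear intensity for each probe set. The submitters' processing notes name MAS5; the version and the genome build are not given in the sources used here. MAS5 scales each array to a common mean, and the 2% trimmed mean was 2501 on all 6 arrays. Detection calls were not used. Values were floored at 1 before log2. Of 31042 probe sets without controls, 20826 had 1 symbol in GEO's platform annotation, 436 had several and 9780 none; only the first were named. Probe sets with a mean log2 above the 40th percentile were tested with limma 3.58.1 in R 4.3.3 (lmFit, eBayes with an intensity trend; 4 residual degrees of freedom), Benjamini-Hochberg adjusted over 18625. A second model had clone II, the other GLI1 arrays and parental as 3 levels. The fit was tested on simulated data with independent noise for each probe set and array. That simulation held no shared clone and no shift common to an array, so it cannot speak to these.

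Named genes were those that passed and, per complex, those with the smallest adjusted p, plus the isoforms of complex IV with Cox5a and Cox5b. Other genes named beside them were chosen after their values were seen. The members, the 5 pathway lists and the marker lists (kidney epithelium, fibroblast, immune, endothelium, muscle) were chosen with earlier results of these data known. Alternatives covered scaling, filter, trend, added constant, probe set choice, replicate block and left-out arrays. The number of arrays limits the precision.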

Additional observations from a re-analysis of the deposited data

Results flagged for a closer look

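In 7 of the 87 genes (8.05%) 1 of the 4 GLI1 arrays stood far from the other 3, by Dixon's 95% critical value, which chance exceeds in about 5% of such groups. The array with no clone named was the low one in 4 of them: Atp5mf at 15.17 (nearest other array 15.89), Ndufa8 at 13.65 (14.44), Ndufaf1 at 8.20 (9.59) and Ndufv2 at 13.61 (13.96). Clone I was the high one for Atp5mc3 at 16.32 (nearest 16.11) and Cox8a at 14.92 (14.72). Clone II replicate 1, the array of highest GAPDH ratio, was the low one for Ndufb11 at 13.47 (14.36). The share of such groups over all probe sets was not counted. Genes on the same arrays are not independent, so 8.05% is not read as above 5%.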

How the results depend on the processing

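Falls stayed at 0 of the tested genes in all 16 alternatives. The count of 4 that rose was 2 with every array centred on its median, with no filter, with no intensity trend and with the clone II arrays averaged into 1, and 0 without both clone II replicate 1 and parental replicate 1; with 1 array left out at a time it ran from 1 to 7. Over all probe sets the fit with no trend gave 705 rises, and leaving out both arrays gave 326 calls (158 rises and 168 falls); with 1 array left out calls ran from 525 to 3104, rises from 244 to 1393 and falls from 281 to 1711. The 13 risen genes of the related lists, Ppargc1a included, counted under settings chosen after seeing the data, were 8 with no filter, 8 with no trend, 2 without both arrays, and 4 to 14 with 1 left out. The median of 0.23 ran from 0.04 to 0.48. Direction turned for Cox8a with centring (0.033), and without both arrays for Cox5b (-0.17), Cox6b1 (-0.23) and Ndufa4 (-0.12). With 1 array left out the ranges were -0.074 to 1.09 for Sdhb, -0.069 to 0.12 for Cox5a (-0.061 without clone II replicate 1), -0.13 to 0.39 for Cox5b, -0.11 to 0.47 for Cox6a1, -0.33 to 0.62 for Cox6b1 and -0.20 to 0.68 for Ndufa4. Where 1 parental array was left, it was assumed to vary like the other arrays; the cause of these shifts was not tested. Rises made 44.6% of all calls, and 60.6% after centring. With the replicate number as a block the same 4 genes rose, with a median of 0.23, and 2627 probe sets were called. Over all probe sets the pair differences correlated at 0.32, 0.10 and 0.07, so the numbers were not taken to pair the arrays. Among the 81 genes the same correlations were 0.81, 0.16 and 0.13, and the fit without a block leaves a shared shift in its residual spread. With the block the limma adjusted p was 0.174 for Sdhb and 0.11 for Cox7a2l, which again did not pass. Slc25a11 (0.0542) and Pdss2 (0.0575) of the related lists lost their calls.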

Other observations

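Catalytic subunits of complex IV encoded in mitochondrial DNA were also on the array, and are given as values chosen after they were seen. COX1 had 17.21, 16.96, 17.07 and 16.84 on the GLI1 arrays (no clone named, clone I, clone II replicates 1 and 2), against 16.71 and 17.16 on the parental arrays, a difference of 0.09 (limma adjusted p = 0.797). COX2 had 17.09, 16.26, 15.63 and 16.72 on the GLI1 arrays, against 16.31 and 17.23 on the parental arrays, a difference of -0.34 (adjusted p = 0.613). The groups overlapped for both.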
